A study of Brassica rapa with 12 samples.

Results

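On chromosome A03 of Chinese cabbage, a run of neighbouring gene IDs was singled out for genes whose response to heat differed between GIGANTEA-edited plants and wild type. The run starts at BraA03g049360.3.5C and ends with BraA03g054150.3.5C. It lists 480 IDs, of which 296 had enough counts to be tested, out of 28846 genes tested in all and 4226 tested on A03. These 296 members hold ranks 3396 to 3691 in the ID order of the tested A03 genes, which is 7.0% of that chromosome. The ends of the stretch were set with the heat by genotype interaction of these same libraries known, so that interaction and the heat and genotype differences it is made of are given as a description of the members. The heat response averaged over both genotypes and the genotype difference averaged over both temperatures hold the same heated wild-type libraries, so their calls are not separate from that choice and are given as a description too. A p-value below is the one the fit over all genes gave for that member.

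Messenger RNA of whole plants was sequenced in 12 libraries, with 3 libraries in each of 4 groups. The wild type is the cultivar Chiifu, listed as early flowering, and the gi plants are Chiifu in which GIGANTEA was edited, listed as late flowering. Plants of all groups were 2 weeks old and had been raised on plain MS medium. In each genotype the unheated group stayed at 22 °C and the heated group was put at 37 °C for 1 h. The labels give neither the edited allele, the number of independent edited lines nor the number of plants behind a library, so the gi group may stand for 1 line. The transcript of the edited gene and markers of the tissue were not analysed here, because the deposited IDs are not paired with gene names. The labels do not say whether replicates are separate cultures, so a p-value here covers the spread among the libraries at hand, part of which may be technical.

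GIGANTEA is known from Arabidopsis as a clock-associated protein that takes part in the photoperiodic control of flowering. Heat shock in plants is known to raise the transcripts of chaperones quickly while many other transcripts decline. The genome of Brassica rapa descends from an ancient polyploid, and near-identical copies of a gene, some of them side by side, are common. None of the 47249 listed IDs matched the gene table at hand, so no member is given a function or a sequence, and members are ordered by how they behaved.

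Total counts in genes ran from 36778289 to 57777477 per library, and a gene with 0 counts had a floor of 0.0377 to 0.0964 CPM (3 counts per library). CPM are counts scaled to a common library size with TMM, a factor per library that aligns the bulk of the genes. That factor was 1.39 ± 0.134 (SD, n = 3) in unheated wild type, 0.719 ± 0.0489 in heated wild type, 1.25 ± 0.0598 in unheated gi and 0.816 ± 0.126 in heated gi. It therefore moved with heat in both genotypes, and counts of heat calls are given below under plain totals as well. Wild type at 37 °C replicate 1 stood apart elsewhere on A03, where 11 genes at ranks 493 to 805 were below 0.1 CPM in that library and at 1 CPM or more in the other 11. No member of the stretch had that pattern.

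The members were mostly genes of low to middle level. The mean CPM of the highest group was 100 or more in 21 members, from 10 to under 100 in 104, from 1 to under 10 in 116 and below 1 in 55. Of the 184 IDs that were not tested, 86 had no count in any library. The median total of the remaining 98 was 8 counts over all 12 libraries. The tested share was 61.7% of the IDs in the stretch and 63.4% of the 6203 other IDs on A03.

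The wild-type libraries at 37 °C were lowest for the stretch taken as a whole. The median over members of log2(CPM + 0.5) was 2.43 ± 0.161 (SD, n = 3) in unheated wild type and 1.85 ± 0.0572 in heated wild type. It was 2.38 ± 0.0277 in unheated gi and 2.24 ± 0.0496 in heated gi. The 3 heated wild-type libraries lay between 1.81 and 1.92, and the other 9 lay between 2.19 and 2.55, so these ranges did not meet. Over the 3930 other tested genes of A03 the same medians were 3.04 ± 0.0383, 2.99 ± 0.0553, 3.00 ± 0.0309 and 3.02 ± 0.0691 in the same order of groups, and the groups overlapped there. These are bulk samples, in which fewer cells of a type and less RNA per cell cannot be told apart. As a share of all counts, the 480 listed IDs of the stretch, tested or not, ranged from 0.597% to 0.647% in heated wild type. That overlapped unheated gi (0.600% to 0.669%) and unheated wild type (0.617% to 0.757%) but not heated gi (0.673% to 0.699%). On average these IDs took 0.693% ± 0.0708 of all counts in unheated wild type, 0.625% ± 0.0252 in heated wild type, 0.625% ± 0.0389 in unheated gi and 0.688% ± 0.0136 in heated gi.

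**Figure D1:**
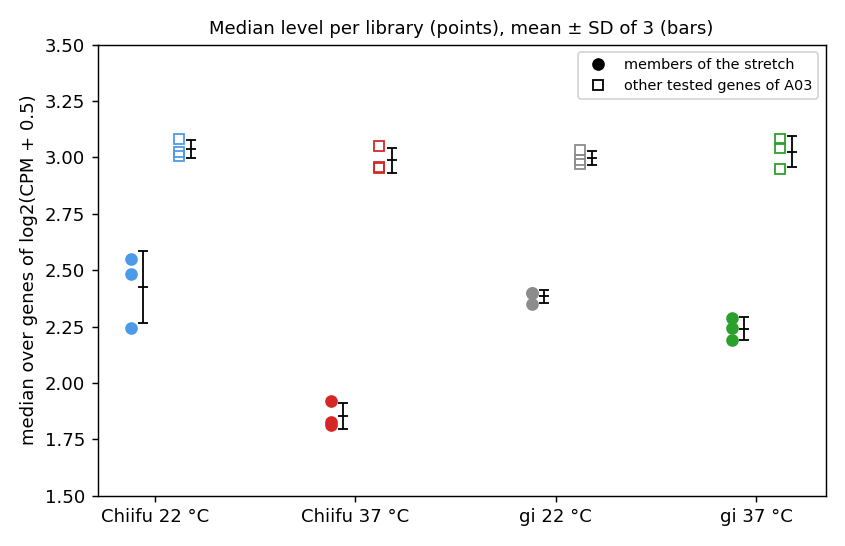
Median over genes of log2(CPM + 0.5) in each library, by group, for the 296 members of the A03 stretch (filled circles) and the 3930 other tested A03 genes (open squares), with bars for the mean ± SD of 3 libraries. The heated wild-type libraries lie at 1.81 to 1.92 for the members, below the other 9 libraries, while the other A03 genes stay near 3 in every group.

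A low level in heated wild type alone was counted more often than any other group standing apart. In 52 members (17.6%) each of the 3 heated wild-type libraries was below each of the other 9, against 4.9% of all tested genes and 5.11% of the other A03 genes. The opposite order, with heated wild type above all others, held for 14 members, 4.73% of the stretch and 4.73% of all tested genes. Each other group was counted in the same way. Wild type at 22 °C was below the rest in 3 members and above it in 11 (2.97% and 4.26% of all tested genes), and unheated gi in 3 and 8 (2.26% and 3.12%). Heated gi was below the rest in 4 members and above it in 13 (4.37% and 4.94%).

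The gap was wide in some of these 52 members and narrow in most. In 20 of them the highest heated wild-type library was at least 2-fold below the lowest of the other 9, counting 7 members that had no count at all in heated wild type, and in 32 the gap was under 2-fold. Among those 7, BraA03g051860.3.5C had as little as 0.0166 CPM in the other 9. That is under the heated wild-type floors of 0.0871 to 0.0964 CPM, so a 2-fold gap is not shown for it. The median log2 change with heat over the 52 was -2.03 in wild type and -0.32 in gi. Over the 244 other members it was -0.20 in wild type and -0.04 in gi. The median log2 difference of gi from wild type over the 52 was -0.14 at 22 °C and 1.59 at 37 °C. The 52 were picked on these same values, so the medians describe how far the group stands apart and support nothing further.

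**Figure D2:**
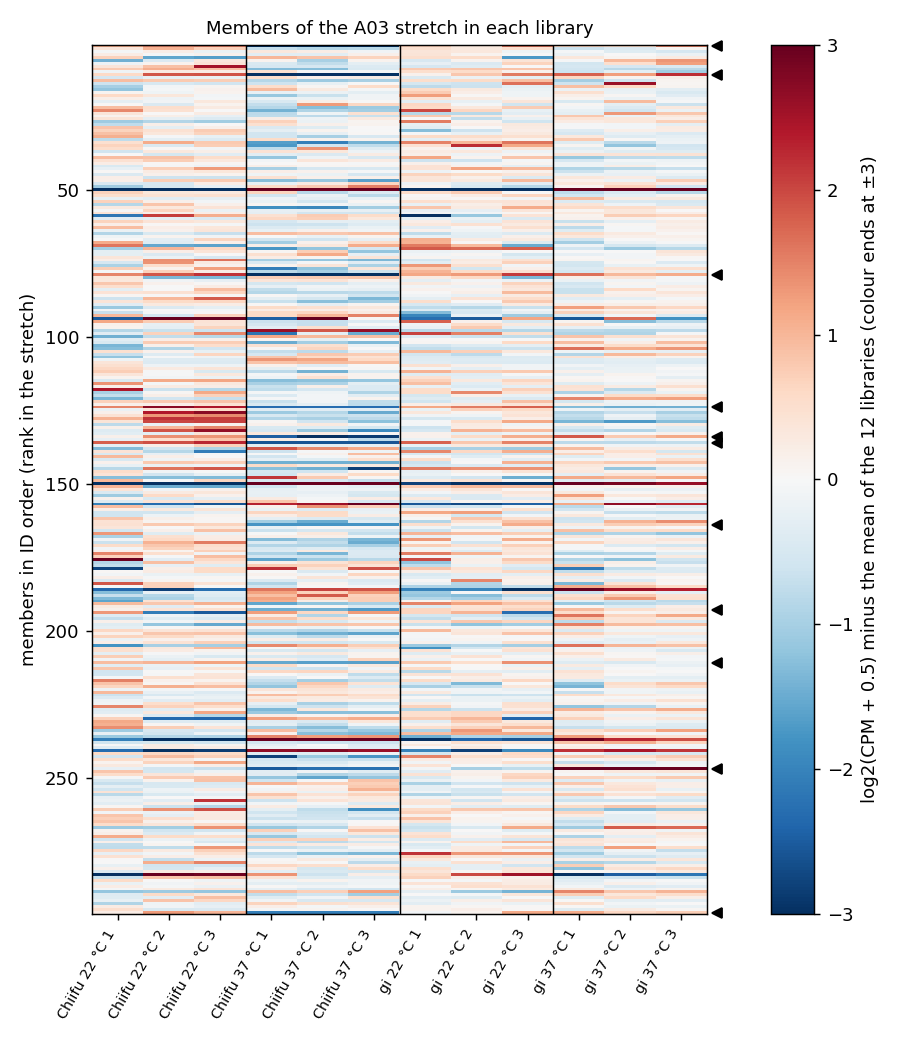
Level of every member in every library, as log2(CPM + 0.5) minus the member's mean over the 12 libraries, with members in ID order from top to bottom and colours ending at ±3. Black arrows mark the 11 members with a genotype-dependent heat response. Blue bars at these arrows sit in the 3 heated wild-type columns, and red bars in the 6 heated columns mark members raised in both genotypes.

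Of the 296 members, 11 passed an adjusted p of 0.05 for the interaction in edgeR's quasi-likelihood test, which is the contrast that led to the choice of the stretch. In all 11 the heat response of gi was above that of wild type, and no member passed in the other direction. Over all tested genes 0.0693% passed as higher in gi and 0.0485% as lower, and among the other A03 genes 3 passed as higher and 4 as lower. Those 3 higher genes, BraA03g046710.3.5C, BraA03g047360.3.5C and BraA03g048190.3.5C, lay before the stretch at A03 ranks 3222, 3270 and 3328. In each of them every heated wild-type library was below all other libraries. The 4 lower genes lay at ranks 1835 to 3007. At an unadjusted p under 0.05 the interaction took in 68 members (23.0%) and 445 other A03 genes (11.3%). Of the 100 tested genes before the stretch it took in 19%, and of the 100 after it 22%. These shares were close to that of the stretch, so it was not particular to the stretch. DESeq2 called 29 members higher and 0 lower, out of 517 interaction calls over all genes, where edgeR made 34. The other 285 members did not pass, so a heat response that depends on genotype was called in few of the genes of the stretch. The count is set in part by single libraries, being 20 without unheated wild type replicate 1, 7 without unheated gi replicate 1 and 6 without unheated gi replicate 2. Without unheated wild type replicate 1, 2 members were also called lower. With the replicate number as a block 6 members were called, of 16 calls over all genes. With a block within each temperature 4 were called, of 9.

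The 11 lay along the whole stretch, at ranks 1, 11, 79, 124, 134, 136, 164, 193, 211, 247 and 296 of its 296 members, with 1 to 67 other members between neighbours. All 11 had heated wild-type libraries below the other 9. At 22 °C none of them was called between the genotypes and the largest log2 difference was 0.83 in size. With heat, 7 of the 11 moved by under 2-fold in gi and were not called there, 3 were lowered in gi as well, and 1 was raised in gi.

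The first members with this response had no or almost no reads in heated wild type, and their levels in heated gi overlapped those without heat. BraA03g049360.3.5C, the first member of the stretch, had 9.57, 12.2 and 13.1 CPM in unheated wild type and 0 counts in each wild-type library at 37 °C. In gi it had 7.20, 5.24 and 13.6 CPM at 22 °C and 6.95, 6.33 and 12.8 CPM at 37 °C. The 3 heated wild-type libraries were the only ones without reads of it, and both gi groups overlapped each other and unheated wild type. Against the floor of 3 counts per library its level in heated wild type was at least 126-fold lower than in unheated wild type and at least 94.7-fold lower than in heated gi.

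BraA03g049540.3.5C had 12.3, 30.1 and 30.7 CPM in unheated wild type and 0, 0.0307 and 0 CPM, 1 count in all, in heated wild type. Its level in gi was 8.75, 14.2 and 24.3 CPM at 22 °C and 28.9, 19.5 and 38.5 CPM at 37 °C. Heated gi overlapped both groups at 22 °C, and heated wild type lay far below all of them. The ratio of unheated wild type to heated wild type was 2481, with an exact 95% counting interval of 445 to 98016, and that of heated gi to heated wild type was 2916 (523 to 115210). These intervals, and the floors, hold only the error of counting, because reads were not tied to single molecules by identifiers.

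BraA03g050760.3.5C was the most abundant of the members that were nearly silent in heated wild type. It had 34.0, 45.4 and 56.4 CPM in unheated wild type against 0.0290, 0.0307 and 0 CPM, 2 counts in all, in heated wild type. In gi it had 27.7, 30.2 and 53.2 CPM at 22 °C and 39.1, 24.3 and 26.9 CPM at 37 °C. The gi groups overlapped at both temperatures. The ratio of unheated wild type to heated wild type was 2271 (628 to 18753), and that of heated gi to heated wild type was 1492 (413 to 12321).

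Members further along repeated this order at lower levels. BraA03g052330.3.5C had 1.82, 2.44 and 2.19 CPM in unheated wild type and 0 counts in heated wild type, with 1.90, 1.32 and 3.21 CPM in unheated gi and 1.59, 2.33 and 2.19 CPM in heated gi. BraA03g054150.3.5C, the last member, had 1.92, 4.50 and 3.72 CPM in unheated wild type and 0 counts in heated wild type, with 1.46, 1.71 and 4.06 CPM in unheated gi and 4.01, 2.68 and 2.93 CPM in heated gi. In both members every heated wild-type library was without reads and the other 3 groups overlapped. Heated wild type was at least 22.2-fold below heated gi for BraA03g052330.3.5C and at least 34.9-fold below it for BraA03g054150.3.5C.

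A second set was lowered by heat in both genotypes, and further in wild type. BraA03g051840.3.5C had 9.86, 11.02 and 13.8 CPM in unheated wild type and 0 counts at 37 °C, while gi went from 9.74, 4.79 and 7.92 CPM at 22 °C to 1.23, 1.23 and 1.30 CPM at 37 °C. BraA03g051650.3.5C had 6.28, 15.5 and 12.6 CPM in unheated wild type and 0 counts at 37 °C, and gi went from 4.95, 6.60 and 7.78 CPM to 0.489, 0.378 and 0.393 CPM. BraA03g052830.3.5C had 2.44, 2.62 and 3.04 CPM in unheated wild type and 0.0290, 0 and 0 CPM at 37 °C, and gi went from 2.15, 1.68 and 3.45 CPM to 0.669, 0.630 and 0.861 CPM. In these 3 members the heated gi libraries lay below every library at 22 °C and above every heated wild-type library. The log2 change with heat in gi was -2.57 ± 0.30 (SE), -3.93 ± 0.40 and -1.75 ± 0.46 in that order of members. Heated gi was at least 13.7-fold above heated wild type for BraA03g051840.3.5C and at least 4.57-fold above it for BraA03g051650.3.5C. For BraA03g052830.3.5C, with 1 count in heated wild type, the ratio was 71.4 (12.5 to 2855).

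The remaining members of the 11 were still read in heated wild type. BraA03g051820.3.5C had 4.77, 11.7 and 11.4 CPM in unheated wild type and 0.348, 0.0614 and 0.161 CPM at 37 °C, against 4.68, 6.48 and 9.51 CPM in unheated gi and 16.4, 7.62 and 9.86 CPM in heated gi. BraA03g052650.3.5C had 2.12, 2.61 and 2.83 CPM in unheated wild type and 0.348, 0.369 and 0.225 CPM at 37 °C, against 3.19, 2.72 and 3.26 CPM in unheated gi and 4.06, 2.90 and 2.36 CPM in heated gi. In both, heated wild type stood below and the other groups overlapped, with a log2 change with heat in wild type of -5.58 ± 0.62 (SE) and -2.99 ± 0.33 and in gi of 0.71 ± 0.48 and 0.02 ± 0.29.

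BraA03g053310.3.5C was the 1 member whose direction with heat was opposite in the genotypes with both changes called. Wild type had 23.0, 18.3 and 16.8 CPM at 22 °C and 4.38, 5.31 and 5.43 CPM at 37 °C. The gi libraries had 25.8, 13.5 and 15.96 CPM at 22 °C and 474, 263 and 228 CPM at 37 °C. The genotypes overlapped at 22 °C, and at 37 °C every gi library was above every wild-type library and above every library at 22 °C. The log2 change with heat was -1.94 ± 0.32 (SE) in wild type and 4.12 ± 0.35 in gi, and heated gi was 63.7-fold above heated wild type.

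**Figure D3:**
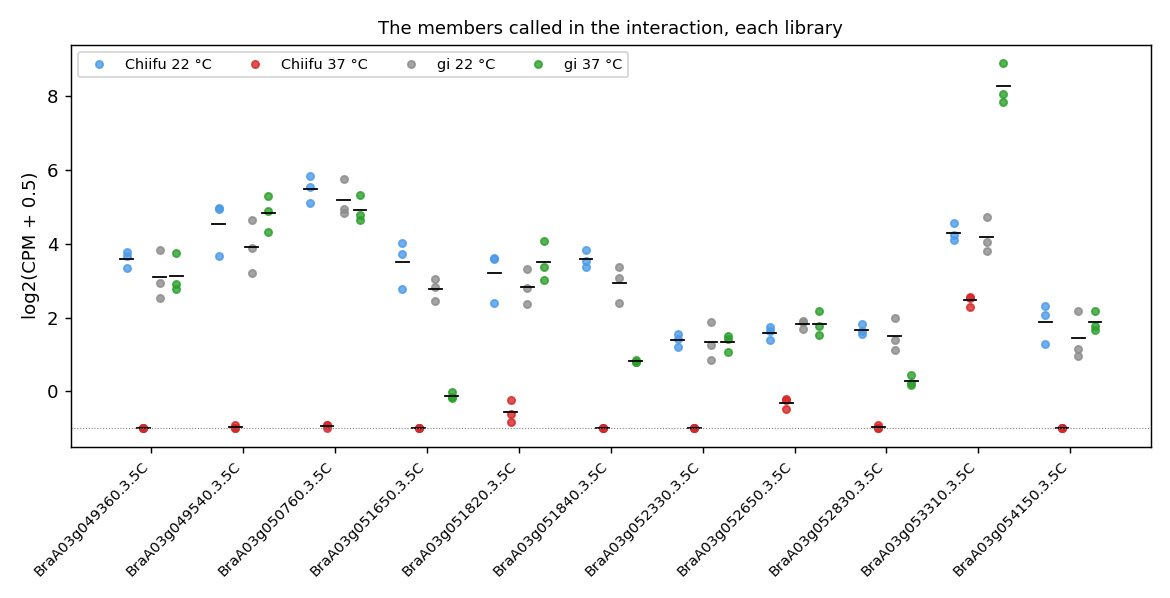
Level of the 11 members with a genotype-dependent heat response in each library, as log2(CPM + 0.5), with a point per library and a bar for the group mean. The dotted line is 0 CPM. The red points of heated wild type lie below the other 9 libraries in every member, and the green points of heated gi rise far above the rest in BraA03g053310.3.5C alone.

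The tested genes just outside the ends, which the choice of ends left out, had reads in every group. BraA03g049350.3.5C, just before the first member, had 60.2, 36.0 and 27.3 CPM in unheated wild type, 33.2, 21.1 and 24.2 CPM in heated wild type, 59.3, 41.2 and 44.2 CPM in unheated gi and 39.2, 38.9 and 32.3 CPM in heated gi. BraA03g054160.3.5C, just after the last member, had 4.99, 4.47 and 4.12, then 1.60, 1.90 and 1.51, then 4.19, 5.56 and 4.31, then 1.93, 1.64 and 2.09 CPM in the same order. Both genotypes declined in value with heat in these genes, and their interaction log2 values were 0.26 and 0.13, against 12.17 and 10.80 in the members at the ends. The ends were set with the interaction known, so this contrast is a description and marks no boundary. BraA03g049370.3.5C, the member at rank 2 of the stretch, also had reads in every library, and its interaction log2 value of 0.87 was not called.

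Over all members the interaction leaned towards higher values in gi. Its median log2 value was 0.33 in the stretch and 0.01 in the other A03 genes. It was at least 2-fold towards gi in 82 members (27.7%) and at least 2-fold towards wild type in 31 (10.5%), where the other A03 genes had 14.7% and 7.53%. The 100 tested genes before the stretch had 19% and 8%, and the 100 after it had 20% and 7%. In 6 consecutive windows of 49 or 50 members the median was 0.33, 0.49, 0.85, 0.09, 0.32 and 0.13, so it was above 0 in each and highest in the window from BraA03g051250.3.5C to BraA03g052010.3.5C. In the 100 tested genes before and after the stretch it was 0.08 and -0.05. The number of members with heated wild type below the other 9 was 7 to 10 in each window of 49 or 50. It was 13 in the 100 genes before and 9 in the 100 genes after, sets of larger size. Of all tested genes 4.9% had this order, so it was also above that share on both sides and was not particular to the stretch.

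The running median of the interaction over 25 neighbouring tested genes was highest on A03 inside the stretch, at 1.70 around BraA03g051680.3.5C. The highest value elsewhere was 0.98, around BraA03g048040.3.5C, which is among the 100 tested genes before the stretch. For heat in wild type the running median reached its lowest value on A03, -2.65, around BraA03g051810.3.5C, with -1.28 as the lowest elsewhere. For heat in gi the lowest value, -0.89 around BraA03g051700.3.5C, was also in the stretch but close to the -0.84 reached elsewhere. Neighbours in this order share libraries and overlapping windows, and ID order stands in for position on the chromosome.

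**Figure D4:**
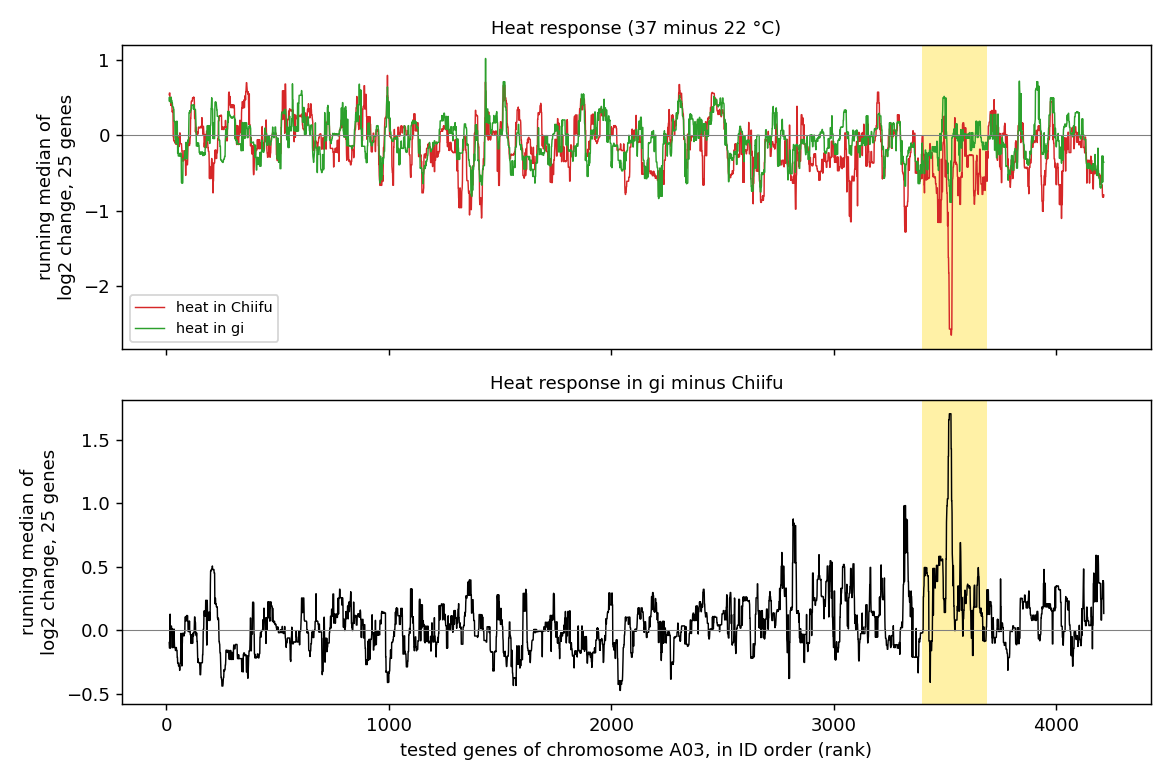
Running median over 25 tested genes of A03 in ID order, with the rank of the gene on the x axis and the stretch shaded. The upper panel gives the log2 change with heat in wild type (red) and gi (green), and the lower panel the log2 difference of these changes. The red line drops to -2.65 and the black line peaks at 1.70 within the shaded ranks 3396 to 3691.

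Heat in wild type, a part of the contrast that led to the stretch, was called as lower in 91 members and as higher in 41, where 16.5% and 18.2% of all tested genes were called. Their log2 change had a median of -0.55 over the stretch and -0.09 over the other A03 genes. Heat in gi was called as lower in 34 members (11.5%) and as higher in 41 (13.9%), against 14.2% and 16.2% of all tested genes, shares that lie somewhat under the background. The median log2 change in gi was -0.09, and -0.06 over the other A03 genes. Without heated gi replicate 2 the count of lowered members in gi was 22. Under plain totals in place of TMM, which shifted the median of all genes to -1.05 in wild type and -0.68 in gi, 175 members were lower and 19 higher in wild type, and 105 lower and 22 higher in gi. The stretch lay below the median of all genes by a similar log2 amount under both scalings, -0.45 and -0.44 in wild type and -0.02 and -0.03 in gi.

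Of the 91 members lowered in wild type, 24 were called as lowered in gi, 66 were not called in gi, and 1 was raised in gi. The 24 are 26.4% of the members lowered in wild type and 70.6% of those lowered in gi, where the same shares over all tested genes were 54.2% and 63.3%. In the 100 tested genes before the stretch these shares were 42.3% and 50%, and in the 100 after it 25% and 60%. A low first share was therefore not particular to the stretch. Lowered in both genotypes were 8.11% of the members and 8.96% of all tested genes, so that share lay near the background. Being called in wild type and not in gi does not show a difference by itself. Among the 66, the median log2 change was -2.13 in wild type and -0.50 in gi, and 51 had a value below 0 in gi. Of the raised members, 29 were called in both genotypes, 12 in wild type and not in gi, and 11 in gi and not in wild type. Those raised in both were 9.8% of the members and 12.7% of all tested genes.

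**Figure D5:**
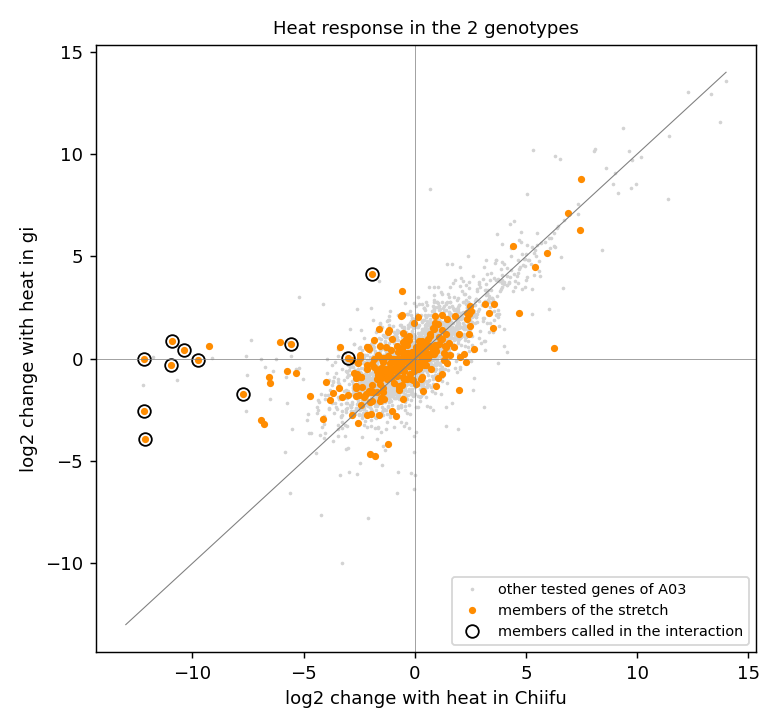
Log2 change with heat in wild type (x axis) and in gi (y axis) for the 296 members (orange) and the other tested A03 genes (grey), with the diagonal of equal change. Circles mark the 11 members with a genotype-dependent heat response, which lie left of 0 in wild type. Raised members follow the diagonal at upper right.

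Averaged over both genotypes, the heat effect was called in 151 of the 296 members, 101 lower (34.1%) and 50 higher (16.9%), by edgeR's quasi-likelihood test with Benjamini-Hochberg adjustment over all genes. Of all tested genes 24.8% were lower and 23% higher, and of the other A03 genes 24.7% were lower and 23.5% higher. Of the 100 tested genes before the stretch 36% were lower and 16% higher, and of the 100 after it 28% were called each way. The share of declines was therefore not particular to the stretch. A member near 0 in heated wild type is moved by that group in every contrast that holds it, this average included. Of the 101 lowered members 45 were among those with heated wild type below the other 9 and 16 had 3 or fewer counts in heated wild type. In 89 of the 101 the value was below 0 in both genotypes and 24 were called in both. Under plain totals 183 members were lower and 26 higher, and with the replicate number as a block within each temperature 54 were lower.

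The largest rises with heat were shared by both genotypes. BraA03g050300.3.5C had 1.48, 2.08 and 2.30 CPM in unheated wild type and 283, 274 and 502 CPM at 37 °C, and in gi 3.42, 1.63 and 1.13 CPM at 22 °C and 1106, 681 and 899 CPM at 37 °C. It rose by 8.13 ± 0.38 on the log2 scale (SE, edgeR adjusted p = 4.72e-08), higher in each of the 6 heated libraries than in any at 22 °C. In heated gi it lay above heated wild type in every library, yet the genotype difference averaged over temperatures was 0.71 ± 0.29 and not called (edgeR adjusted p = 0.165).

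BraA03g052040.3.5C was the most abundant member. It went from 13.6, 9.55 and 10.2 CPM to 2229.6, 1983 and 1472 CPM in wild type and from 17.7, 12.1 and 8.09 CPM to 1264, 908 and 782 CPM in gi. It rose by 6.85 ± 0.29 (SE, edgeR adjusted p = 2.48e-08). All heated libraries were above all others, and heated wild type was above heated gi without overlap.

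BraA03g052200.3.5C rose from near the floor, with 0.381, 0.230 and 0.101 CPM in unheated wild type and 17.5, 20.5 and 46.7 CPM at 37 °C. In gi it had 0.124, 0.0513 and 0.157 CPM at 22 °C and 7.54, 22.2 and 16.8 CPM at 37 °C. The genotypes overlapped after heat, and the average rise was 7.0 ± 0.49 (SE, edgeR adjusted p = 9.53e-07).

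Other abundant members rose in both genotypes as well. BraA03g053150.3.5C, named after its values were seen, went from 17.7, 7.75 and 7.69 CPM to 755, 634 and 639.5 CPM in wild type and from 8.41, 13.9 and 12.04 CPM to 584, 362 and 290.0 CPM in gi. BraA03g053230.3.5C went from 21.1, 13.4 and 14.4 CPM to 686, 745 and 645 CPM in wild type and from 26.5, 15.02 and 28.4 CPM to 495, 590.4 and 475 CPM in gi. In each of these 2 members the heated libraries did not overlap those at 22 °C, and the average rises were 5.55 ± 0.32 (SE, edgeR adjusted p = 1.92e-07) and 4.94 ± 0.22 (3.31e-08). BraA03g052700.3.5C was abundant without heat, at 276, 159 and 123 CPM in wild type and 227, 154 and 174 CPM in unheated gi, and reached 689, 653 and 637 CPM and 1023, 688 and 672 CPM at 37 °C. It rose by 1.96 ± 0.23 (SE, edgeR adjusted p = 4.50e-05), and the heated genotypes overlapped.

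At least 8-fold average rises were called in 8 members, 6 of them called in both genotypes, and at least 8-fold average declines in 18, of which 15 had 3 or fewer counts in heated wild type. Called or not, rises of that size made up 3.04% of the members and 3.63% of all tested genes, and declines 6.42% and 1.52%. Among members with a mean of 10 CPM or more over the 6 libraries at 22 °C, the largest average declines were those of BraA03g049360.3.5C, BraA03g050760.3.5C and BraA03g049540.3.5C, with fitted log2 values of -6.09, -5.62 and -5.01. BraA03g051650.3.5C and BraA03g051840.3.5C, with means of 8.96 and 9.52 CPM over those libraries, had lower fitted values of -8.04 and -7.37. These values depend on the near absence of reads in heated wild type and on how the fit treats it, and none of the 3 was called for heat in gi.

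The lowest running median of the average heat effect on A03, -2.41, was centred on BraA03g051810.3.5C, against -1.07 elsewhere. The 25 members around it, from BraA03g051540.3.5C to BraA03g051970.3.5C, held 15 that fell and 4 that rose on average. Over all tested genes 24.8% fell and 23% rose. The window was picked for its low values of this same average, so its counts are a description. In wild type 15 of the 25 were called lower with heat and in gi 3 were, while 14 of the 25 had values below 0 in both genotypes. At 22 °C the median log2 difference of gi from wild type over these 25 was -0.48, with 18 of 25 below 0 and 0 called by edgeR. Over all tested genes 14985 of 28846 differences at 22 °C were below 0.

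Few members were called between the genotypes at 22 °C. In that comparison 1 member was called as higher in gi and 0 as lower, against 0.451% and 0.562% of all tested genes, and the median log2 difference was -0.05. DESeq2 called 4 higher and 6 lower, and with the replicate number as a block edgeR called 0 higher and 1 lower. The higher count was 3 without unheated wild type replicate 1 or unheated gi replicate 3. It was 0 without unheated wild type replicate 2 or 3, unheated gi replicate 1 or 2, or heated gi replicate 2 or 3. The lower count was 3 without unheated wild type replicate 1. The called member, BraA03g053180.3.5C, had 0.0166, 0.0405 and 0.0126 CPM in unheated wild type and 0.0290, 0 and 0 CPM in heated wild type. In gi it had 0.319, 0.582 and 0.523 CPM at 22 °C and 0.926, 1.13 and 0.713 CPM at 37 °C. Both gi groups lay above both wild-type groups without overlap. Heated gi was above heated wild type by a ratio of 89.1 (15.6 to 3552), with 1 count in heated wild type and 5 in unheated wild type. The average genotype difference was called (edgeR adjusted p = 0.000708), higher in gi in 6 of 6 libraries.

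After heat, 28 members were called as higher in gi than in wild type and 1 as lower, against 1.29% and 1.4% of all tested genes; this comparison holds the heated wild-type libraries that led to the stretch. Of the 28, 25 were among the 52 with heated wild type below the other 9. The difference was at least 8-fold towards gi in 20 members (6.76%), called or not, against 1.02% of the other A03 genes. Without heated gi replicate 3, 17 members were called as higher, and without unheated wild type replicate 1, 9 were called as lower.

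Averaged over temperatures, the genotype difference was called in 32 members by edgeR, 30 higher in gi (10.1%) and 2 lower (0.676%), where 2.75% and 3.19% of all tested genes and 1.96% and 3.41% of the other A03 genes were called. The heated wild-type libraries enter this average, so nothing is read from its count beside the background. Of the 30, 11 had 3 or fewer counts in heated wild type, 24 were among the 52 with heated wild type below the other 9, 15 had a value of the opposite sign at 22 °C, and 1 was called at both temperatures. With the replicate number as a block 22 were called as higher, and with a block within each temperature 20. Leaving out heated gi replicate 3, unheated gi replicate 2 or heated gi replicate 1 left 17, 18 or 19 called as higher. The lower count was 6 without unheated wild type replicate 1, and 1 without heated wild type replicate 2 or 3, unheated gi replicate 1 or any heated gi library. The largest average differences by the rule for named genes were fitted log2 values of 5.26 for BraA03g049540.3.5C, 5.04 for BraA03g050760.3.5C and 2.96 for BraA03g053310.3.5C, the members described above for their levels after heat.

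The 2 members called lower in gi on average behaved differently from each other. BraA03g051040.3.5C had 53.9, 18.1 and 44.2 CPM in unheated wild type and 41.0, 54.1 and 76.5 CPM at 37 °C, and in gi 6.55, 22.7 and 12.7 CPM at 22 °C and 19.7, 25.5 and 20.1 CPM at 37 °C. Its genotypes overlapped at 22 °C and did not at 37 °C, and the average difference of gi from wild type was -1.43 ± 0.33 on the log2 scale (SE, edgeR adjusted p = 0.0326). With the replicate number as a block the adjusted p was 0.0565, and with a block within each temperature it was 0.0934.

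BraA03g051200.3.5C was the reverse of the silent members, being read in heated wild type and nearly absent elsewhere. It had 5.02, 2.79 and 5.17 CPM in heated wild type and 0, 0.0675 and 0.0880 CPM in unheated wild type. In gi it had 0.0177, 0.0171 and 0 CPM at 22 °C and 0.0257, 0 and 0.0246 CPM at 37 °C. All 3 heated wild-type libraries were above the other 9, and its interaction was not called. The average genotype difference was called as lower in gi, with 2 counts in each gi group.

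A stricter count took the members that were silent in some libraries and clearly read in the others. With undetected set below 0.1 CPM and detected at 1 CPM or more, 8 members (2.70%) were in 1 of these states in every library, with at least 1 library in each state. So were 0.916% of the other A03 genes and 0.957% of all tested genes. In 6 of the 8 the undetected libraries were exactly the 3 of heated wild type, a pattern that 0 of the 3930 other A03 genes had. Its share over all tested genes is not given here, and it depends on the limits. These are BraA03g049360.3.5C, BraA03g049540.3.5C, BraA03g050760.3.5C, BraA03g051840.3.5C, BraA03g052330.3.5C and BraA03g054150.3.5C, whose values are given above. With limits of 0.05 and 2 CPM, 3 members had the pattern. Close relatives of it lay before the stretch, where BraA03g043730.3.5C and BraA03g044390.3.5C were undetected in heated wild type and also in unheated gi replicate 2 and heated gi replicate 1, and BraA03g046010.3.5C in heated wild type and heated gi replicate 1. BraA03g047360.3.5C, also before it, had 0.0290, 0 and 0 CPM in heated wild type and 0.710 to 3.11 CPM in the other 9 libraries. BraA03g046710.3.5C had 0.0871, 0.0614 and 0.161 CPM against 5.67 to 16.3 CPM. Near silence in heated wild type was therefore not particular to the stretch.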

How the data were processed

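The authors deposited 1 table of raw counts per library, whole reads per gene with no normalization, and per the submitters' processing notes FastQC, TopHat2, HTSeq and edgeR were used, without versions. Libraries were made with a strand-specific kit, per the labels' protocols. The genome build, annotation and strand setting are not given in the sources used here. Reads of overlapping, antisense or near-identical genes may be split or lost, so single members are uncertain to that extent.

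The model was fitted with edgeR 4.0.16 in R 4.3.3, after filterByExpr by the 4 groups (minimum count 10, minimum total 15), TMM scaling, as a quasi-likelihood fit of the 4 group means to all 12 libraries. P-values were adjusted by Benjamini-Hochberg over all 28846 genes of each contrast, and genes under 0.05 were called. Rows that name no gene stayed out of library sizes: the row for reads not aligned held 50.4% to 51.1% of all entries, and the others 8.37% to 10.1% of the remainder. The procedure was run on simulated counts with known changes in heated gi alone and the same spread for all genes. That setting did not hold near-zero counts in heated wild type, so it is no test of those calls. ID order was taken as order along the chromosome. Named members were those called in the interaction, those undetected in 1 group and detected in the rest or the reverse, the 3 largest changes each way in both averages at a mean of 10 CPM or more over the 6 libraries of the higher side, the 4 most abundant, the 2 with the widest range within a group, and the ends with their neighbours. The 2 averages had been set down as tests, and are described here because they share the heated wild-type libraries with the interaction. The members, lists and rules were chosen with earlier results of these data known.

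Chi-square per degree of freedom between replicates was 17.5 to 416 over 12 pairs, so no library was a duplicate. The 2 largest values, 416 and 372, both held unheated wild type replicate 1, while replicates 2 and 3 of that group gave 80.0. Deviations from the group mean of libraries with the same number correlated between genotypes at 0.271, 0.196 and 0.158 without heat, and at 0.365, 0.115 and 0.178 with it. Each was over 0.1, and on that limit the numbers were taken to pair the genotypes. Unlike numbers passed the limit too, at 0.216 for heated wild type replicate 3 with heated gi replicate 2. Unheated wild type replicate 3 with unheated gi replicate 2 gave 0.101. The limit therefore does not establish a pairing, and the main fit held no replicate block. Between temperatures the numbers were not taken to pair (-0.00443, 0.0780 and 0.0509 in wild type, and 0.118, -0.286 and 0.210 in gi). Alternatives were DESeq2 1.42.0, its size factors in edgeR, total counts, no filter, replicate blocks, and leaving out each library.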

Additional observations from a re-analysis of the deposited data

Results flagged for a closer look

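A difference between the genotypes in the same contrast, heat against no heat, singled out 11 members of the stretch, tested as an interaction over all genes in edgeR. The stretch was chosen on this interaction, so the list is a description. The log2 difference of the heat response, gi minus wild type, was 12.17 for BraA03g049360.3.5C, 11.78 for BraA03g049540.3.5C, 10.80 for BraA03g054150.3.5C and 10.65 for BraA03g050760.3.5C. It was 9.67 for BraA03g052330.3.5C, 9.59 for BraA03g051840.3.5C, 8.23 for BraA03g051650.3.5C and 5.99 for BraA03g052830.3.5C. Those 8 had 3 or fewer counts in heated wild type, and their fitted values depend on how the fit treats counts near 0. With more reads in every group, it was 6.29 for BraA03g051820.3.5C, 6.07 for BraA03g053310.3.5C and 3.01 for BraA03g052650.3.5C.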

How the results depend on the processing

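The balance of heat calls in gi turned over with total counts, and that of the few calls at 22 °C with DESeq2 and the replicate block, as given below. For the interaction (11 members called higher), DESeq2 called 29 members in all, edgeR with the replicate block 6 and with the block within temperature 4, and edgeR without single libraries 6 to 20; lower calls (0) ranged from 0 to 2. BraA03g049540.3.5C, BraA03g050760.3.5C and BraA03g053310.3.5C stayed called under each alternative run. For 18 named members with a called interaction or average, 381 of 432 alternative values kept their call and 51 lost it, with no change of sign.

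With total counts, heat in wild type gave 19 higher and 175 lower (41 and 91 with TMM; 33 to 47 and 67 to 93 without single libraries), heat in gi 22 and 105 (41 and 34; 30 to 47 and 22 to 49), and the average heat effect 26 and 183 (50 and 101; 46 to 57 and 92 to 107), where the block within temperature left 54 lower.

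At 22 °C (1 higher, 0 lower) DESeq2 called 4 and 6, the replicate block 0 and 1, and the block within temperature 0 higher, with 0 to 3 each way without single libraries. At 37 °C (28 and 1) DESeq2 called 46 and 12 and the block within temperature 2 lower, with 17 to 41 and 1 to 9. For the average genotype difference (30 and 2) DESeq2 called 9 lower, the replicate block 22 and 1 and the block within temperature 20 and 1, with 17 to 39 and 1 to 6 without single libraries. The other counts moved by 1.5 times or less.

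With limits of 0.05 and 2 CPM, 3 members were undetected in heated wild type alone, not 6. A running median over 51 genes peaked at 0.85 for the interaction and had its lowest value for heat in wild type at -1.02, both in the stretch. For heat in gi its lowest value on A03, -0.54, lay outside the stretch, around BraA03g037920.3.5C, and -0.47 was the lowest inside. The causes of these shifts were not tested. Depth limits the silent members, where a library at 0 counts could lie anywhere up to its floor.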

Other observations

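Some neighbouring members shared a pattern in which unheated wild type replicates 2 and 3 were highest. BraA03g051690.3.5C had 1.29, 7.99 and 10.003 CPM in the wild-type libraries at 22 °C, 1.54, 1.20 and 1.54 CPM in unheated gi, and between 0.0643 and 0.504 CPM in the 6 heated libraries. BraA03g051720.3.5C had 2.40, 8.43 and 8.66 CPM in unheated wild type and 1.65, 2.69 and 4.41 CPM in unheated gi. BraA03g051750.3.5C had 1.28, 8.10 and 14 CPM and 1.14, 4.26 and 3.89 CPM in the same groups. All 3 lie within 7 tested genes of each other and were chosen after their values were seen. BraA03g051730.3.5C, between them, had 6.65 to 14.7 CPM in all 12 libraries and did not share the pattern.

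The members with the widest range within a group were BraA03g053960.3.5C and BraA03g051060.3.5C. The first had 1.34, 343 and 251 CPM in unheated wild type and 2.65, 5.63 and 7.01 CPM in heated gi. The second had 0.0332, 27.5 and 91.1 CPM in unheated wild type and 0.0580, 25.1 and 2.63 CPM in heated wild type. In both, unheated wild type replicate 1 was far below replicates 2 and 3. BraA03g053060.3.5C, the last of the members split between silence and clear detection, had 3.71, 0.0135 and 0 CPM in unheated wild type and 3.87, 4.71 and 0 CPM in unheated gi, and 2.49 to 5.63 CPM in the heated libraries. The median SD of log2 levels within unheated wild type was 0.356 in the stretch and 0.317 over the other A03 genes, and in heated wild type 0.238 and 0.251.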
